A study of Mus musculus with 6 samples.

Results

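The dystrophin glycoprotein complex was followed through 8 of its genes, Dmd, Utrn, Dag1, Sgca, Sgcb, Sgcd, Sspn and Dtna, chosen by symbol out of 23279 genes measured on the same arrays. Each was read by 1 probe set, and all 8 are described, with no filter on level. The samples were primary mouse myoblasts of strain C57bl6N, the precursors of skeletal muscle fibres, prepared from limb muscles and profiled as 3 activated and 3 control cultures. All 6 cultures carried Pax7-CreERT2, a Cre recombinase that tamoxifen switches on and that Pax7 restricts to muscle stem cells and myoblasts. All 6 also carried 1 beta-catenin allele in which loxP sites flank exon 3 (Beta-cetenin-Exon3-loxP/+ in the labels' spelling). Myoblasts were passaged 5 times and set to differentiate for 24 hours in medium with 2% HS, per the labels. Activated cultures were given 4-OH tamoxifen in ethanol while differentiating and control cultures ethanol alone. Since controls carried the same alleles without 4-OH tamoxifen, the loss of exon 3 and the drug itself cannot be told apart here. Neither the ages, the dose nor the number of animals was stated, so the p-values below cover the spread between cultures only, which may be technical.

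The complex ties the actin cytoskeleton of a muscle fibre to the basement membrane outside it. Dystrophin binds actin at one end and beta-dystroglycan at the other. Alpha-dystroglycan, cut from the same precursor, binds laminin through its sugar chains. The sarcoglycans and sarcospan form a side group in the membrane that steadies this link, and dystrobrevin and the syntrophins sit on its inner face as a signalling platform. Mutations in Dmd cause Duchenne and Becker muscular dystrophy, and those in sarcoglycan genes cause limb-girdle dystrophies. Utrophin, a close relative of dystrophin, is found across the surface of immature muscle cells and at the neuromuscular junction of mature ones.

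The muscle identity of the cultures was checked first. Of 14 muscle cell genes 13 had a higher mean in activated cultures, against 40.3% of all genes. All genes are not matched to this list for level, as its median level percentile was 99.2. The mean log2 level of the list lay between 9.24 and 9.74 in activated and between 7.78 and 8.63 in control cultures. The creatine kinase gene Ckm, a marker of mature fibres outside the naming rule and picked after its values were seen, was at 4.41 ± 0.36 in activated and 4.68 ± 0.18 in control cultures (SD, n = 3 each), near the array medians of 4.04 to 4.36. Means of the marker lists of other cell types were 3.93 to 4.22 in activated and 4.15 to 4.32 in control cultures for fibroblasts (2 of 9 genes higher). Endothelial markers (2 of 10 higher) averaged 3.01 to 3.27 in activated and 3.28 to 3.50 in control cultures, and leukocyte markers (1 of 10 higher) 3.55 to 3.85 and 3.69 to 4.27. Smooth muscle and pericyte markers (4 of 10 higher, Des among them) averaged 5.81 to 6.46 in activated and 5.99 to 6.23 in control cultures, and Schwann cell and neural markers (2 of 7 higher) 4.08 to 4.44 and 4.04 to 4.23. Log2 values have no zero, but Pdgfra, Dcn, Myh11, Pecam1, Cdh5 and Ptprc, which define those other types, had group means of 2.47 to 3.85, all under the lowest array median. Other genes of those lists, named with their values in view, lay above the array medians: Col3a1 was at 6.13 in activated and 7.09 in control cultures, Fbln1 at 4.40 and 5.51, Thy1 at 5.79 and 4.62, Mcam at 5.74 and 6.46, Smtn at 6.42 and 6.83 and Cd68 at 5.69 and 5.75. Rgs5, a pericyte gene, was at 7.80 and 9.59, Acta2 of the smooth muscle list at 10.17 and 9.08 and Tagln at 5.42 and 4.74. Laptm5 of the leukocyte list was at 4.46 and 4.91. The genes given are not all of those above the medians. Axin2, a readout of beta-catenin activity, differed by 1.65 ± 0.35 (SE) on the log2 scale and Ctnnb1 itself by 0.02 ± 0.31. Whether the Ctnnb1 probe set reads exon 3 was not given.

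Because Dmd, Utrn and Sgca carry the contrasts described below, the 250 bases before a RefSeq start of each (GRCm38.p6) are given, with capitals marking every match to a searched motif. For Dmd the more upstream of 2 listed starts is shown (chrX:82948620-82948869, + strand), for Utrn chr10:12861736-12861985 (- strand) and for Sgca chr11:94976328-94976577 (- strand).
Dmd: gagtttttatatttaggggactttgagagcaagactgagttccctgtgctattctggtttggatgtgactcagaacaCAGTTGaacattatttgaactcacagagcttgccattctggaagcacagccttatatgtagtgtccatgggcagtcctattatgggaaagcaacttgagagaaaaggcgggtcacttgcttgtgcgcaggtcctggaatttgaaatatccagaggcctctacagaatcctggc
Utrn: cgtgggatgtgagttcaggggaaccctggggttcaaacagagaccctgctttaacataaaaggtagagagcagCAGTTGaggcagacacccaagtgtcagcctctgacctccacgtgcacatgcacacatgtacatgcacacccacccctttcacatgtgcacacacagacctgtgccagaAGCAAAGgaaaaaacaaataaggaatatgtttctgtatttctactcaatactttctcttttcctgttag
Sgca: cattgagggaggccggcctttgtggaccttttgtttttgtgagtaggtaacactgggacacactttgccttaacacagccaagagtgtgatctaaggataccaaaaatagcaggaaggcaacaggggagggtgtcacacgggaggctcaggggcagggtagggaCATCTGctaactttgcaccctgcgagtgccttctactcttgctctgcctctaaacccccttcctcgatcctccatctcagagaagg
Motifs were searched on both strands: the E-box CAGNTG, the core bound by MyoD and myogenin, the Mef2 motif (CTA and TAG, 4 bases apart) and CTTTGNT for TCF/LEF factors, the DNA-binding partners of beta-catenin. Dmd holds CAGTTG starting 173 bases before its start, Sgca holds CATCTG (the other strand of an E-box) at 86 bases, and Utrn holds CAGTTG at 177 bases and AGCAAAG, a TCF/LEF match on the other strand, at 69 bases. RefSeq promoters were found for 7 of the 8 members, with 10 starts between them. Of these 10, 5 held an E-box, 1 a TCF/LEF match and 0 a Mef2 match. Of all 32851 RefSeq promoters, 44.8% held an E-box, 16% a TCF/LEF match and 3.2% a Mef2 match, so E-boxes were about as common in these windows as elsewhere. A match is a run of letters, not a binding site. Whether the listed starts are those used in these cultures was not tested.

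No member passed the test between activated and control cultures. All 8 members had a higher mean in activated cultures, against 40.3% of all genes, and their median log2 difference was 1.34, against -0.08 over all genes. All genes are not matched to the members for level: the members' median level percentile was 90.4, and genes above the median level had a median difference of 0.12. The SD across probe sets was 1.88, 2.12 and 1.96 in activated replicates 1, 2 and 3, against 1.72, 2.01 and 1.76 in the control replicates. In limma's fit over all genes 0 of the 8 reached an adjusted p of 0.05, against 0% of all genes (0 of 23279), and with the replicate number as a block again 0 of the 8, against 0.133% of all genes. At an unadjusted p under 0.05, 5 members were higher and 0 lower, where 4.44% of all genes were higher and 3.42% lower. Those 5 were Dmd, Dag1, Sgca, Sgcd and Dtna, and with the replicate block Sgcb joined them, 6 in all (unadjusted p = 0.0109 for Sgcb). Their number was 1 without activated replicate 1, 1 without activated replicate 2 and 3 without control replicate 1 or control replicate 3. The count over all 23279 genes moved too: 1034 were higher in the main fit and 2242 with the replicate block. It was 1011 and 522 without activated replicate 1 or 2, and 728 and 832 without control replicate 1 or 3. In 3 members (Dmd, Sgcb and Dtna) each activated culture lay above each control culture, as in 5.4% of all genes, and in 0 the reverse held, as in 7.4%. That number was 6 without activated replicate 3, 5 without control replicate 2 and 4 without control replicate 1 or 3. Groups separate more easily with fewer arrays, and the share over all genes was not counted in these settings. These numbers therefore cannot be read as stronger separation of the members. Comparing cultures of the same replicate number, 6 of the 8 were higher in all 3 pairs, as were 16.6% of all genes, the exceptions being Utrn and Sspn. These are whole-culture measurements, in which more differentiated cells and more RNA per cell cannot be told apart. The muscle cell genes were higher along with the members (median log2 difference 1.17). Most leukocyte markers (median -0.39, 9 of 10 lower), endothelial markers (-0.31, 8 of 10 lower) and fibroblast markers (-0.15, 7 of 9 lower) were lower, as were 13896 of all 23279 genes. The leukocyte, endothelial and fibroblast lists had median level percentiles of 39.7, 25.3 and 46.9, and the muscle cell list one of 99.2. The part of cell composition, expression level or array spread in the result was not tested.

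**Figure D1:**
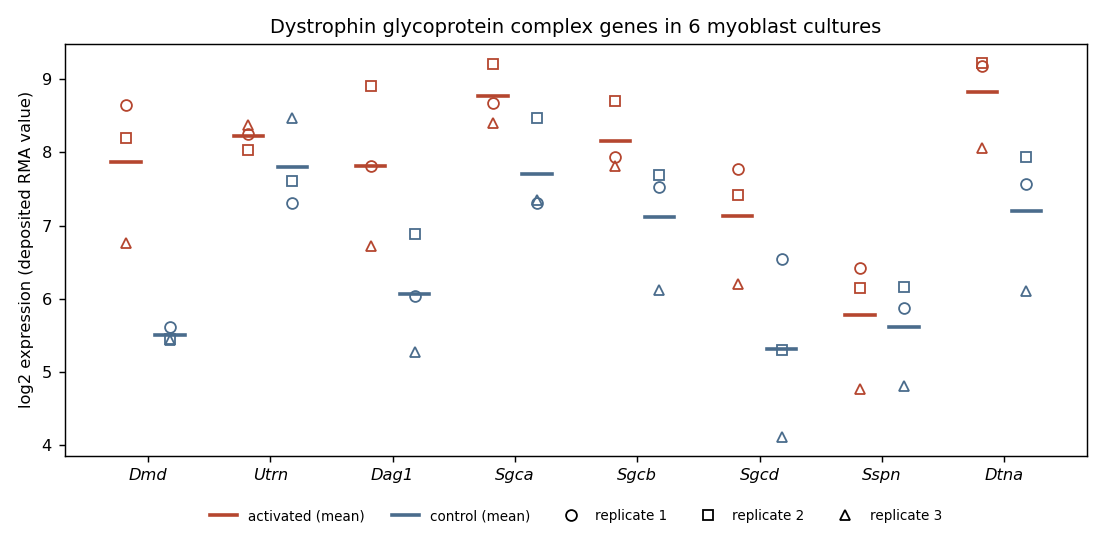
Deposited log2 expression (vertical axis) of the 8 members (horizontal axis) in each culture, activated left of control, with symbols for replicate numbers and bars for group means (n = 3 each). Dmd, Sgcb and Dtna show no overlap between groups, and the 3 control values of Dmd span only 5.44 to 5.62.

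Dmd encodes dystrophin, the rod that joins actin to beta-dystroglycan. Its log2 level was 8.64, 8.20 and 6.76 in activated replicates 1, 2 and 3, against 5.62, 5.45 and 5.44 in control replicates 1, 2 and 3. The controls were nearly equal, while activated replicate 3 stood between them and the other activated cultures. Group means were 7.86 ± 0.99 and 5.50 ± 0.10 (SD, n = 3 each), a difference of 2.36 ± 0.46 (SE) on the log2 scale or 5.15-fold. This was the largest difference among the 8, and limma gave an adjusted p of 0.256. Without activated replicate 3 the difference was 2.92 and passed (limma, adjusted p = 0.0406). The other settings gave adjusted p-values from 0.00877, with the replicate block and without pair 3, to 0.920 without activated replicate 2. Which exons the probe set reads was not given, so the full-length muscle form and the short forms started inside the gene cannot be told apart.

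Utrn encodes utrophin, which shares dystrophin's actin- and dystroglycan-binding ends. It was measured at 8.25, 8.04 and 8.38 in activated replicates 1, 2 and 3, against 7.31, 7.61 and 8.47 in the control replicates. Control replicate 3 exceeded all 3 activated cultures, so the groups overlapped. The difference was 0.42 ± 0.33 (SE) with an interval of -0.34 to 1.19 (95%; limma, adjusted p = 0.756). Quantile normalization left 0.11 of it and cyclic loess 0.06. The difference was 0.18 without control replicate 1 and 0.76 without control replicate 3 (limma, adjusted p = 0.589), and 0.68 with the replicate block and without pair 3.

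Dag1 encodes dystroglycan, both the laminin-binding alpha and the membrane-spanning beta part. Its level was 7.81, 8.91 and 6.72 in activated replicates 1, 2 and 3, against 6.04, 6.89 and 5.27 in the control replicates. Activated replicate 3 lay just under control replicate 2, the only overlap between the groups. Within same-numbered cultures Dag1 was higher by 1.77, 2.02 and 1.45. Its mean was 7.81 ± 1.10 in activated and 6.06 ± 0.81 in control cultures (SD, n = 3 each), 3.36-fold apart (limma, adjusted p = 0.544).

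Among the sarcoglycans, Sgca encodes the alpha subunit, which is largely confined to striated muscle. It had 8.68, 9.21 and 8.41 in activated replicates 1, 2 and 3, against 7.30, 8.47 and 7.34 in the control replicates. Control replicate 2 exceeded activated replicate 3 by a small margin. The difference was 1.06 ± 0.38 (SE), or 2.08-fold (limma, adjusted p = 0.561), and 0.68 after cyclic loess.

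The beta subunit gene Sgcb, active in many tissues, was at 7.94, 8.70 and 7.81 in activated replicates 1, 2 and 3, against 7.52, 7.69 and 6.12 in the control replicates. Its groups did not overlap, though only narrowly. The difference of 1.04 ± 0.46 (SE) had an unadjusted p of 0.0566 (limma, adjusted p = 0.639) and was 0.55 without control replicate 3.

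The delta subunit gene Sgcd, expressed in striated and smooth muscle, was at 7.78, 7.41 and 6.20 in activated replicates 1, 2 and 3, against 6.55, 5.30 and 4.11 in the control replicates. Control replicate 1 lay above activated replicate 3. Same-numbered cultures differed by 1.23, 2.12 and 2.09. With means of 7.13 ± 0.83 and 5.32 ± 1.22 (SD, n = 3 each), Sgcd had a difference of 1.81 ± 0.65 (SE) or 3.51-fold (limma, adjusted p = 0.561). Leaving out control replicate 3 gave 1.21, and leaving out activated replicate 1 gave 1.49.

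Sspn encodes sarcospan, a small membrane protein that sits with the sarcoglycans. Its values were 6.42, 6.14 and 4.77 in activated replicates 1, 2 and 3, against 5.87, 6.16 and 4.81 in the control replicates. The groups overlapped almost completely, and cultures numbered 2 and 3 differed by -0.01 and -0.04. The difference was 0.16 ± 0.52 (SE; interval -1.04 to 1.38 at 95%; limma, adjusted p = 0.926). Its sign turned without activated replicate 1 (-0.16), activated replicate 2 (-0.02) or control replicate 3 (-0.24).

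Dtna encodes alpha-dystrobrevin, a dystrophin relative on the inner face of the complex that binds syntrophins. It was at 9.18, 9.22 and 8.06 in activated replicates 1, 2 and 3, against 7.57, 7.94 and 6.10 in the control replicates. All 3 activated cultures lay above the highest control, and same-numbered cultures differed by 1.61, 1.29 and 1.96. The mean was 8.82 ± 0.66 in activated and 7.20 ± 0.97 in control cultures (SD, n = 3 each), 3.07-fold apart (limma, adjusted p = 0.504). Without control replicate 3 the difference was 1.07.

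The size of the difference varied among the 8 genes. Dmd, Sgcd, Dag1 and Dtna differed by 1.62 to 2.36 on the log2 scale, Sgca and Sgcb by 1.06 and 1.04, and Utrn and Sspn by under 0.5, with 95% intervals that overlapped between neighbours in this order. Replicate 3 held the lowest value of its group for 7 of 8 members in activated cultures and for 6 of 8 in control cultures. Utrn was the exception in both groups and Sgca in the control group. The same count over all genes was not made, so this order cannot be read as a trait of the members. With the replicate number as a block and pair 3 left out, a setting added after the data were seen, Dmd, Dag1, Sgcd and Dtna passed (limma, adjusted p = 0.00877, 0.0200, 0.0451 and 0.0436). That setting called 501 of all genes.

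**Figure D2:**
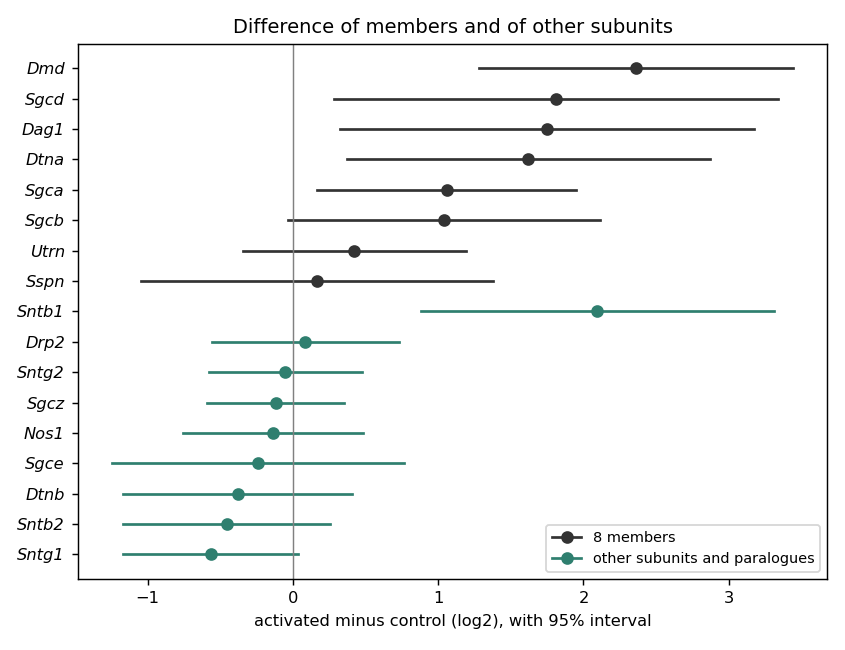
Difference of activated minus control on the log2 scale (horizontal axis) with 95% intervals from limma for the 8 members (dark) and 9 other subunits and paralogues (green). Dmd lies furthest from 0 at 2.36, and Sntb1 is the one green gene near it at 2.10.

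Of 9 further subunits and paralogues measured, 2 were higher (Sntb1 and, picked with its values in view, Drp2) and 7 lower. Of all genes 40.3% were higher. The list's median log2 difference was -0.14 (-0.07 with control replicate 3 left out, -0.22 with activated replicate 1 left out and -0.21 with control replicate 2 left out). Median centring brought it to -0.0095. Sgcz and Sntg2, outside the naming rule, lay under the array medians in both groups. The list had a median level percentile of 52.1, against 90.4 for the members, and was not matched to them for level. In limma 0 passed the adjusted test, with 1 higher and 0 lower at an unadjusted p under 0.05. Sntb1, encoding beta-1-syntrophin, an adaptor that binds dystrophin and dystrobrevin, was at 8.09 ± 0.78 in activated and 5.99 ± 0.83 in control cultures (SD, n = 3 each). Its groups did not overlap and differed by 2.10 ± 0.52 (SE; limma, adjusted p = 0.355). The other syntrophin genes named by the rule had differences of the opposite sign, -0.46 ± 0.30 (SE) for the beta-2 gene Sntb2 and -0.57 ± 0.26 for the gamma-1 gene Sntg1. Sntg1 was under the array medians in both groups, at 3.37 in activated and 3.93 in control cultures. Dtnb, the beta-dystrobrevin gene, which is best known outside muscle, differed by -0.38 ± 0.34 (SE) and Sgce, the epsilon-sarcoglycan gene, by -0.24 ± 0.43.

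Members were set against their paralogues as within-array log2 differences, whose change between groups, not whose level, can be read. Dmd minus Utrn was 0.39, 0.16 and -1.62 in activated replicates 1, 2 and 3, against -1.70, -2.16 and -3.03 in the control replicates. The groups did not overlap, by a narrow margin, and the mean differed by 1.94 (two-sided exact permutation test, p = 0.1, adjusted over 3 pairs 0.15). With 3 cultures against 3, 0.1 is the smallest p this test can give. Sgca minus Sgce averaged 4.48 ± 0.47 in activated and 3.18 ± 0.48 in control cultures (SD, n = 3 each), again without overlap, a change of 1.30 with the same exact p. That change was 0.81 after quantile normalization and 0.78 after cyclic loess. In both settings the exact permutation p was 0.3, so the groups overlapped there. Dtna minus Dtnb averaged 3.05 ± 1.01 and 1.05 ± 1.50, a change of 2.00 with overlapping groups (exact permutation p = 0.2, adjusted 0.2). Without control replicate 3 that change was 1.14. In all 3 pairs of genes the difference was larger in the activated culture of each of the 3 same-numbered pairs.

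**Figure D3:**
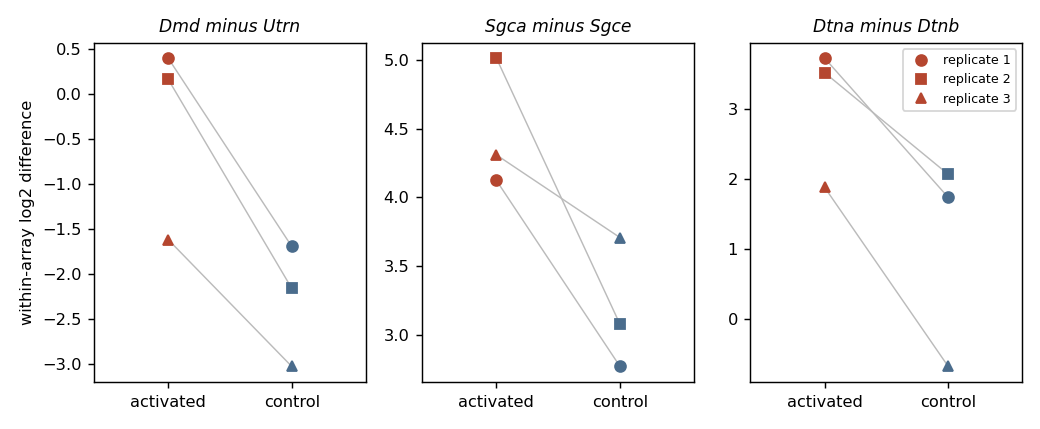
Within-array log2 difference between a member and its paralogue (vertical axis, own scale in each panel) in activated and control cultures, with lines joining cultures of the same replicate number. Every line is higher at its activated end, and control values of Dmd minus Utrn reach -3.03.

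Dystroglycan binds laminin only once a chain of enzymes has built its sugar. Of 18 genes of this route 14 were measured: 11 were higher and 3 (Pomk, Pomt1 and Large2, outside the naming rule) lower, with a median log2 difference of 0.34. Leaving out control replicate 3 gave a median of 0.13, activated replicate 2 one of 0.17 and control replicate 2 one of 0.52. In limma 0 passed the adjusted test, and 1 was higher and 0 lower at an unadjusted p under 0.05. Pomgnt2, which extends the first mannose, was at 6.03 ± 0.10 in activated and 5.31 ± 0.20 in control cultures (SD, n = 3 each) without overlap, a difference of 0.72 ± 0.21 (SE; limma, adjusted p = 0.446). B4gat1, which primes the laminin-binding repeat, differed by 1.09 ± 0.56 (SE), Pomgnt1 by 0.37 ± 0.24 and the sugar-donor enzyme gene Gmppb by 0.31 ± 0.23.

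Outside the cell, 13 of 14 genes for dystroglycan's ligands and the basement membrane were measured, with 6 higher, 7 lower and a median of -0.10. The sign of that median turned without activated replicate 2 (0.04) or control replicate 3 (0.04), and it was -0.22 without control replicate 1, -0.21 without activated replicate 3 and -0.06 without control replicate 2. It also turned after median centring (0.02) and with the replicate block without pair 2 (0.20) or pair 3 (0.0048). With the block and without pair 1 it was -0.19. In limma 0 passed the adjusted test, and 2 were higher and 0 lower at an unadjusted p under 0.05. Nid2, encoding the laminin-binding protein nidogen-2, was at 8.37 ± 0.33 in activated and 7.01 ± 0.66 in control cultures (SD, n = 3 each). It differed by 1.36 ± 0.37 (SE; limma, adjusted p = 0.397), while its paralogue Nid1 had -1.07 ± 0.58. The laminin beta-2 gene Lamb2 differed by 0.82 ± 0.35 (SE) and the laminin alpha-1 gene Lama1, under the array medians in both groups, by -0.33 ± 0.22.

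Inside the cell, 14 of 15 partner genes were measured, 12 higher and 2 (Ank3 and Krt19, outside the naming rule) lower, with a median of 0.28. Leaving out activated replicate 3 gave 0.09, and leaving out control replicate 3 gave 0.43. By limma 0 passed the adjusted test, and 2 were higher and 0 lower at an unadjusted p under 0.05. Flnc, encoding filamin C, an actin crosslinker that binds sarcoglycans, was at 9.45 ± 0.31 in activated and 7.76 ± 0.33 in control cultures (SD, n = 3 each). The groups did not overlap and differed by 1.69 ± 0.27 (SE; limma, adjusted p = 0.186). Cav3, encoding caveolin-3, which binds beta-dystroglycan, differed by 1.92 ± 0.59 (SE) without overlap. Smaller differences were found for the adaptor gene Grb2, 0.49 ± 0.25 (SE), and the desmin-binding gene Sync, 0.43 ± 0.25.

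**Figure D4:**
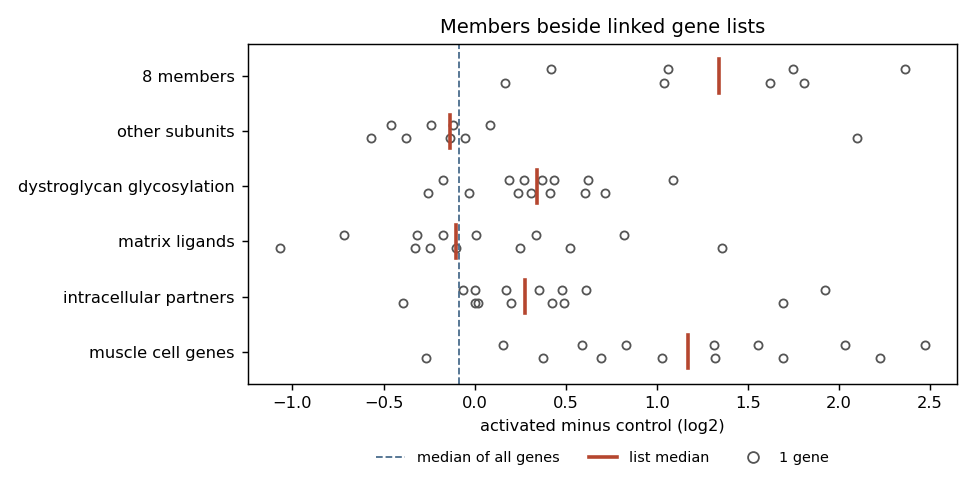
Difference of activated minus control on the log2 scale (horizontal axis) for each gene (circles) of the members and of 5 linked lists, with list medians (bars) and the median of all genes at -0.08 (dashed line). The members (median 1.34) and the muscle cell genes (1.17) lie furthest to the right.

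Muscle cell genes had the highest median of the linked lists, 1.17 over 14 genes. Their median level percentile was 99.2, against 74.8 for the glycosylation genes, 90.8 for the matrix ligands and 77.6 for the intracellular partners. Of the muscle cell genes 0 passed the adjusted test in limma, and 7 were higher and 0 lower at an unadjusted p under 0.05. With the replicate block 2 passed, Mef2c (adjusted p = 0.0479) and, outside the naming rule, the Z-disc actinin gene Actn2 (0.0434). Their 4 smallest p-values belonged to Des, the intermediate filament desmin (difference 1.56 ± 0.36, SE), the embryonic myosin gene Myh3 (1.31 ± 0.33), the M-cadherin gene Cdh15 (1.03 ± 0.29) and the transcription factor gene Mef2c (2.03 ± 0.62). Myog, encoding myogenin, was at 9.36, 11.33 and 10.01 in activated replicates 1, 2 and 3, against 8.68, 8.85 and 6.51 in the control replicates. The mean of the muscle list was higher by 0.86, 1.11 and 1.46 in the cultures numbered 1, 2 and 3. Dmd was higher by 3.03, 2.75 and 1.32 in the same pairs, most in pair 1, where the muscle list differed least. Sgcb was higher by 0.42, 1.01 and 1.69, most in pair 3, as was the muscle list. Dmd and Sgcb were picked out of the 8 members with their values in view. The mean of all 8 was higher by 1.36, 1.29 and 1.18 in pairs 1, 2 and 3. What sets these orders over 3 pairs was not tested. Genes of the muscle list varied over the pairs too: Ttn was higher by 1.58, 1.65 and 0.73, Neb by 0.95, 0.68 and 0.13 and Myog by 0.68, 2.49 and 3.50. Ttn and Neb, outside the naming rule, were picked with their values in view.

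The genes with the profile most like a member's over the 6 arrays were found by the root mean square difference of gene-centred log2 values. For Dmd these were Sorbs2 (0.14), a Z-disc adaptor, Myom2 (0.20), an M-band protein, Filip1 (0.25), a filamin-interacting protein, the glutamate receptor gene Grik1 (0.26) and the basement membrane gene Frem2 (0.26). Sorbs2 differed between groups by 2.31 ± 0.38 (SE) and Myom2 by 2.42 ± 0.47. Nearest to Sgca were the kinase gene Nuak1 (0.10), the myosin light chain gene Myl12a (0.10), Etfdh (0.14), Gnpat (0.14) and Ccdc43 (0.14). Utrn was nearest to Gpr182 (0.07), Znfx1 (0.08), the huntingtin gene Htt (0.08), the golgin gene Golga4 (0.09) and Vav2 (0.10). Among the members themselves the closest profiles were Dag1 and Dtna (0.41) and the furthest Utrn and Sgcd (1.36).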

How the data were processed

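The deposited table holds log2 expression values of 24479 probe sets on 6 arrays, hybridized with biotin-labelled target from 100 ng of total RNA, per the labels. RMA and Partek are named, without version or role, per the submitters' processing notes. For the array design and genome build: not given in the sources used here. Platform annotation named 23281 probe sets. Where a symbol had several (2 symbols) the one with the highest mean was kept, leaving 23279 genes. From these values limma 3.58.1 (R 4.3.3) fitted group as the only term, with two-sided moderated tests and Benjamini-Hochberg adjustment over all genes, checked on simulated data. No filter was applied. The number of arrays limits the precision. Members, lists and tests were chosen with earlier results of these data known. Named genes are the members, their paralogues, the 4 smallest p-values of each of 5 linked lists, Myog, Axin2, Ctnnb1 and the 5 profiles nearest to Dmd, Utrn and Sgca. Same-numbered arrays deviated together from their group means (r = 0.38, 0.49 and 0.45 across genes, all above 0.1), so the replicate numbers in the titles were taken to pair them. Sequences are from RefSeq (GRCm38.p6). Some genes of the lists are not reported here.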

Additional observations from a re-analysis of the deposited data

How the results depend on the processing

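Quantile normalization, cyclic loess and median centring kept all 8 members above 0. Median centring moved the median difference of all genes to 0.04, against -0.08 as deposited, and the split at an unadjusted p under 0.05 to 1317 higher and 537 lower, against 1034 and 796. The higher count ran from 522 without activated replicate 2 to 2242 with the replicate block. With that block 31 genes passed the adjusted test (0 after quantile normalization) but 0 members, whose smallest adjusted p-values were 0.0541 (Dag1), 0.0651 (Dtna), 0.0664 (Sgcd) and 0.0776 (Dmd). The paralogue comparisons by sign flips within pairs gave an exact p of 0.25, the smallest possible, but 0.5 for Sgca minus Sgce after quantile normalization. The block changed no adjusted call on the members. Without pair 3 it called 501 genes and 4 members: Dmd (2.89), Dag1 (1.90), Sgcd (1.67) and Dtna (1.45). With the block and without pair 1, Sspn stood at -0.026 and the median of the other subunits at -0.32. Leaving out 1 array gave 0 to 28 genes past the adjusted test, 0 to 1 members past it, 1 to 5 members higher at an unadjusted p under 0.05 and 3 to 6 without overlap. In these settings 522 to 1592 of all genes were higher at an unadjusted p under 0.05. Those without overlap were not counted over all genes. Dmd then ranged from 1.98 to 2.92, and Sspn from -0.24 to 0.67 with -0.16 and -0.02 among its values. Cyclic loess put the muscle cell median at 0.79. The cause of these changes was not tested. The members differed in the same direction in all other settings, except Sspn as given. Of 4 planned paralogue comparisons, 1 was not run.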

Other observations

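Among the marker lists of other cell types a few genes stood apart from their list, all outside the naming rule and picked after their values were seen. The tubulin gene Tubb3, held in the neural list and also active in other cells that change shape, was at 8.84 ± 0.32 in activated and 5.69 ± 1.66 in control cultures (SD, n = 3 each; limma, adjusted p = 0.325). Sox10, which defines Schwann cells, was at 3.40 ± 0.11 and 3.92 ± 0.26, under the array medians. The pericyte gene Rgs5 was at 7.80 ± 0.83 in activated and 9.59 ± 0.90 in control cultures (adjusted p = 0.473). Drp2, a dystrophin relative best known from Schwann cells, was at 7.97 ± 0.06 in activated and 7.89 ± 0.46 in control cultures, a difference of 0.08 ± 0.27 (SE). Nos1, the neuronal nitric oxide synthase that mature fibres anchor to the complex, was at 4.04 ± 0.27 and 4.18 ± 0.34, near the array medians.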
